A study of Mus musculus with 6 samples.

Results

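The p53 target genes examined here were the 10 genes Cdkn1a, Mdm2, Ccng1, Btg2, Plk2, Plk3, Gdf15, Trp53inp1, Perp and Sesn1, chosen as well-known genes that p53 switches on and located on the array by their gene descriptions. They were 10 of 36210 features. A feature is all target rows of a gene joined, or a row that could be given no gene name, standing by itself. The 10 genes held 18 of 44170 target rows, of which 15 carried the gene's usual name and 3 another name of it. The 3 added rows were described as p21 (Waf1), which is Cdkn1a, and as stress-induced protein SIP18 and thymus expressed acidic protein, which lie at Trp53inp1. Livers of 6 wild-type male C57 BL/6 mice aged 9 to 10 weeks were measured on single-colour NimbleGen arrays, 1 mouse per array. LPS/GalN mice (n = 3) received 0.01 µg of LPS together with 20 mg of GalN, and LPS mice (n = 3) received 0.01 µg of LPS only, both for 2.5 h. LPS is lipopolysaccharide of bacterial cell walls, and GalN is D-galactosamine, an amino sugar whose metabolism ties up the uridine nucleotides of hepatocytes. Both groups had LPS, and livers without treatment or with GalN as the single agent were not analysed here, so the values compare the 2 treated groups and give no distance from a resting liver.

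p53 is a transcription factor that is kept scarce by the ubiquitin ligase Mdm2 and accumulates when DNA is damaged or ribosome synthesis is disturbed. Its targets stop the cell cycle, start apoptosis, adjust metabolism and, through Mdm2, end the response. In liver the pathway is known for holding damaged hepatocytes back from division. Several of these genes also answer to growth factors, cytokines or nutrient stress without p53, among them the immediate early genes Btg2, Plk2 and Plk3.

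Levels are log2 RMA intensities, as explained with the processing, and each difference is LPS/GalN minus LPS on that log2 scale. Levels of different genes come from different probes and are not set against each other. The arrays had median intensities between 60.4 and 63.1, and the random probes that mark background lay between log2 4.97 and 5.12. All 10 hepatocyte markers were above background on all 6 arrays, as were all 10 p53 target genes in the brightest row of each, with log2 levels from 6.11 to 11.98. Some arrays stood apart in markers of other tissues. The summed intensity of 8 measured T cell and thymus markers was 428, 12266 and 7490 on LPS/GalN replicates 1, 2 and 3, against 461 to 684 on the LPS arrays. That of 9 measured intestinal markers was 2152 to 2758 in LPS/GalN, against 23183, 25415 and 3448 on LPS replicates 1, 2 and 3. Each of these markers was above background on at least 1 array, 3 of the 8 and 5 of the 9 on all 6. Endothelial markers summed to 14070 to 17036 in LPS/GalN and 7092 to 10585 in LPS. Kupffer cell markers summed to 21807 to 24545 and 10597 to 15804, and neutrophil markers to 1260 to 2243 and 3083 to 4266. Each of these sums was without overlap of the groups. The median log2 level of the neutrophil markers overlapped, at 7.15, 6.02 and 6.06 on the LPS/GalN arrays against 6.55, 7.1 and 6.47 in LPS. In LPS/GalN 8 of these 10 markers had a lower mean and 2 a higher one. Only 6 of them were above background on all 6 arrays. Hepatocyte markers overlapped, with 363871 to 395460 in LPS/GalN and 370623 to 412773 in LPS. Whether the cell makeup has a part in the results below was not tested, and in whole liver fewer cells of a type and less RNA per cell cannot be told apart.

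The bases before the start sites of 4 members are shown because these members read lower in LPS/GalN and because their starts differ in the elements they hold. RefSeq (GRCm38.p6) gave starts for 8 of the 10 members, 11 starts in all, and not for Trp53inp1 and Perp. Each line holds the 250 bases before the start, 5′ to 3′ along the gene. For Cdkn1a (chr17:29090729-29090978, plus strand, the more upstream start) capitals mark 2 matches to the p53 half-site consensus, at bases -73 to -64 and -51 to -42, and the palindromic motif CATGNNNNNNCATG at -48 to -35, which overlaps the second half-site. For Mdm2 (chr10:117710759-117711008, minus strand) they mark a p53 half-site at -186 to -177. For Btg2 (chr1:134079156-134079405, minus strand) they mark TGACGTCA, the cyclic AMP response element, at -166 to -159. For Plk3 (chr4:117133964-117134213, minus strand) they mark TGACG, the first 5 bases of that element, at -132 to -128 and -63 to -59.
Cdkn1a: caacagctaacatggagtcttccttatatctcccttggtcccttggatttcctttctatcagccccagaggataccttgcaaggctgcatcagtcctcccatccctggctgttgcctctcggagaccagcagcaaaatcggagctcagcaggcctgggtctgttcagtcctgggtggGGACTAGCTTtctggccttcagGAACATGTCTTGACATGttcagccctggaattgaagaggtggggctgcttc
Mdm2: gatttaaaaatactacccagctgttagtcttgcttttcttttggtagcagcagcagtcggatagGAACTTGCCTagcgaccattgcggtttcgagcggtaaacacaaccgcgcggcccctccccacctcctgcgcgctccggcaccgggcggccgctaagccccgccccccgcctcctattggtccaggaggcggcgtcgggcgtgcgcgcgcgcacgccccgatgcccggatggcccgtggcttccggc
Btg2: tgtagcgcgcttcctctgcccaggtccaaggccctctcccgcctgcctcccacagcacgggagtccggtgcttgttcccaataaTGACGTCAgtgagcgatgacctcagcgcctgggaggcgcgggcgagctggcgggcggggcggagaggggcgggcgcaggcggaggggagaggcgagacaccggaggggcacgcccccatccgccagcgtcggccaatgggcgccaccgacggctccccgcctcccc
Plk3: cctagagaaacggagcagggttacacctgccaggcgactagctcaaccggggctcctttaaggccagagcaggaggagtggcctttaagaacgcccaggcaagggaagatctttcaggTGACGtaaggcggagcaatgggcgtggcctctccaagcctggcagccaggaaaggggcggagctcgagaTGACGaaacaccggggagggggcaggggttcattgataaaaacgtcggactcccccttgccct

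The half-site is a loose motif, and many starts match it. Read on both strands, a p53 half-site stood in 7.13% of 32851 RefSeq starts over the same length, and in 4 of the 11 member starts. These were starts of Cdkn1a, Mdm2, Ccng1 and Sesn1. In the order given, these genes differed by -1.34, -1.12, 0.24 and 0.56 in their brightest rows, and none of these differences passed the test. Whether the half-site has a part in the differences was not tested. A pair of half-sites up to 13 bases apart, as in Cdkn1a, stood in 0.064% of all starts and in 1 member start, and CATGNNNNNNCATG in 0.49% and 1. TGACGTCA stood in 1.55% of all starts and in 2 member starts, those of Btg2 and Plk2. TGACG or its complement CGTCA, which both lie within TGACGTCA, stood in 17.8% and in 4, those of Btg2, Plk2, Plk3 and Sesn1. These matches are letters in a window, and binding was not measured.

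More of the p53 target genes read lower than higher with GalN, in a list chosen with earlier results of these data known. The shares of all features below are therefore a description and not a test of the list. In LPS/GalN livers 6 of the 10 had a lower mean than in LPS livers and 4 had a higher one, while 45.1% of all features had a lower mean. The median difference of the 10 was -0.90, against 0.053 for all features. One member, Plk3, passed the test and fell, and 0 rose (limma, adjusted p under 0.05 over all 36210 features), where 3.02% of all features fell, 0.597% rose and 3.62% did either. At an unadjusted p under 0.05 there were 5 members, all lower, against 17.6% of all features in either direction and 9.09% lower. Every LPS/GalN array lay below every LPS array for 4 members and above for 1, which makes 5 of 10 without overlap, against 11.1%, 13% and 24% of all features. With each row tested by itself, 4 of the 18 rows fell and 0 rose, against 3.13% and 0.654% of all rows. These were 1 row of Mdm2, both rows of Plk3 and 1 row of Trp53inp1, and rows of the same gene are not independent.

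**Figure D1:**
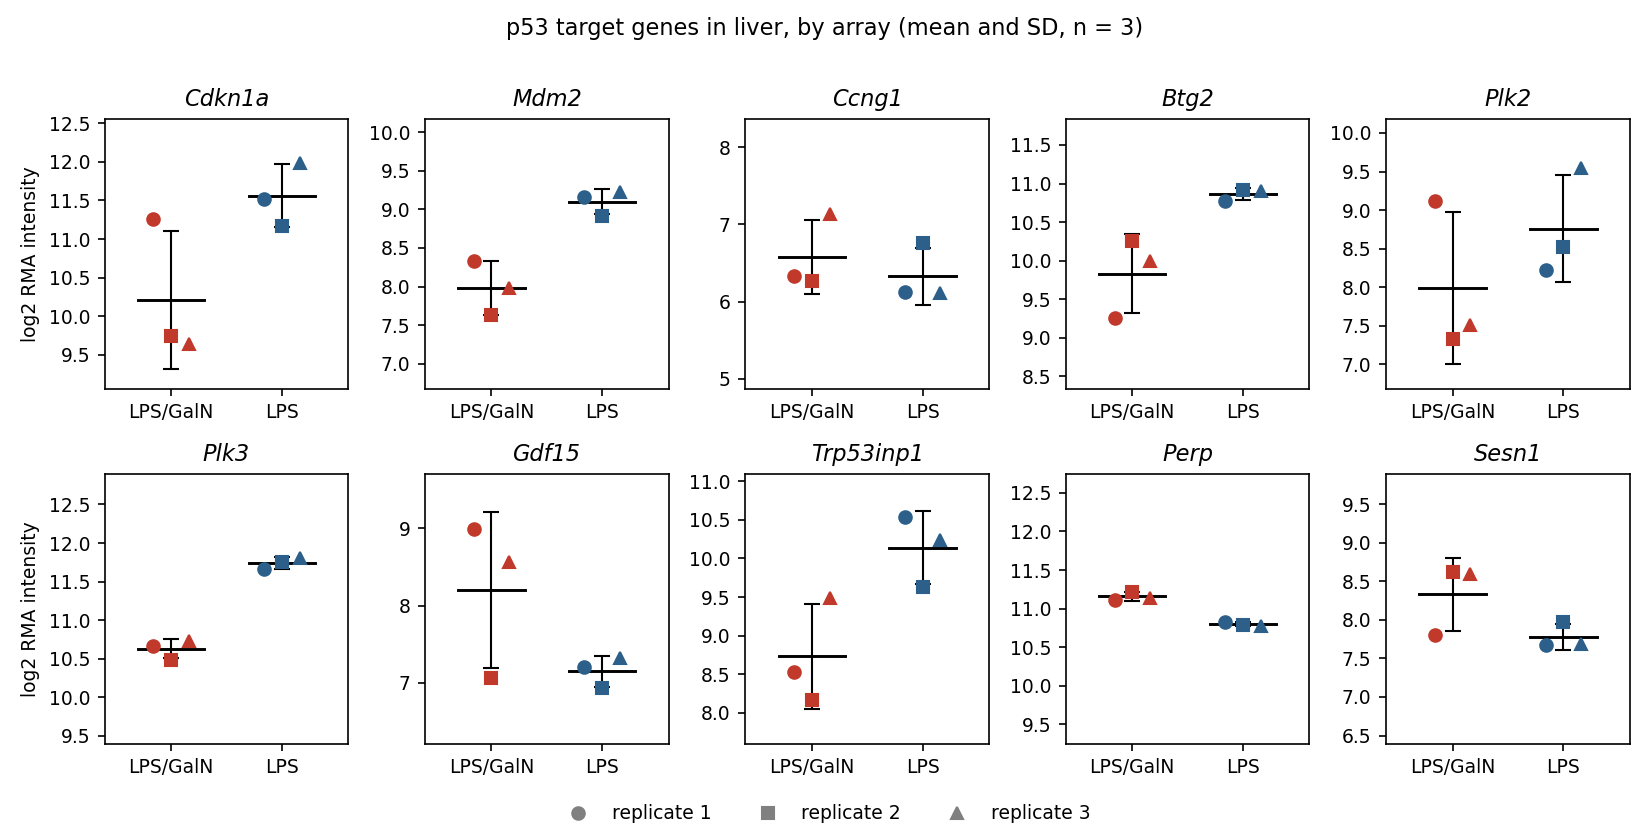
Log2 RMA intensity of the brightest target row of each p53 target gene on every array, with LPS/GalN left of LPS. Circles, squares and triangles are replicates 1, 2 and 3, lines and bars are the mean and SD (n = 3), and every panel spans the same height on the log2 scale. The groups do not overlap for Mdm2, Btg2, Plk3 and Trp53inp1, which are lower in LPS/GalN, and for Perp, which is higher.

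Among the genes that restrain the cell cycle, Plk3 was the one that passed the test. Plk3, a polo-like kinase of the stress response (chr4:116801259-116806557 on mm9), read 10.66, 10.49 and 10.73 on LPS/GalN replicates 1, 2 and 3, against 11.66, 11.76 and 11.81 on the LPS arrays. The groups were separate and narrow, with SDs of 0.12 and 0.08. The difference was -1.12 ± 0.21 (SE, 95% interval -1.60 to -0.64), 2.17-fold lower, with an adjusted p of 0.0251 by limma. A second Plk3 row was dimmer and further apart, at 6.60, 6.42 and 6.02 in LPS/GalN against 9.15, 9.25 and 9.60 in LPS. That row fell by 2.99 ± 0.25 (7.93-fold, adjusted p = 0.000856 in the fit of single rows), so both rows fell but by different amounts. The difference of the brighter row lay between -1.17 and -1.05 with any 1 array left out. Its adjusted p was 0.0486 without LPS/GalN replicate 1 and 0.0595 to 0.0984 without any of the other 5 arrays. The difference was -1.18 when LPS replicates 1 and 2, where the intestinal markers were highest, were left out. When LPS/GalN replicates 2 and 3, which carried the thymus markers, were left out it was -1.08. In both cases 1 array stood for a group, so the spread of that group is unknown. The part of the intestinal and thymus signals in the Plk3 difference was not tested.

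Cdkn1a, which encodes p21, the inhibitor of cyclin-dependent kinases that carries out p53's cell cycle arrest, split the LPS/GalN mice. Its brightest row (chr17:29227930-29237667) read 11.26, 9.74 and 9.64 on LPS/GalN replicates 1, 2 and 3, against 11.52, 11.17 and 11.98 in LPS. LPS/GalN replicate 1 lay within the range of the LPS arrays, and replicates 2 and 3 lay below it. The difference of -1.34 ± 0.45 (95% interval -2.38 to -0.30, adjusted p = 0.174) did not pass. Without LPS/GalN replicate 1 it was -1.86 with an adjusted p of 0.017, while over all 18 alternatives the adjusted p reached 0.804. Without replicates 2 and 3, which carried the thymus markers, the difference was -0.30. The part of the thymus signal in this split was not tested.

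The other rows of Cdkn1a differed from the brightest. A dimmer one read 7.80, 5.93 and 6.20 in LPS/GalN against 7.82, 7.45 and 7.64 in LPS, a difference of -0.99 ± 0.46 (adjusted p = 0.32) with the same split of replicate 1 from replicates 2 and 3. The row described as p21 (Waf1) (chr17:29235151-29237667) read 7.22, 7.22 and 5.95 against 5.84, 6.72 and 6.75, a difference of 0.36 ± 0.42 (adjusted p = 0.715). It showed no separation of the groups and did not share the pattern of the other 2 rows.

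Btg2, an antiproliferative gene that also aids removal of mRNA tails (chr1:135971747-135975682), read 9.26, 10.25 and 9.99 in LPS/GalN, against 10.77, 10.92 and 10.90 in LPS. Every LPS/GalN array was lower, and replicate 1 was the lowest, the reverse of its place in Cdkn1a. The difference was -1.03 ± 0.29 (95% interval -1.70 to -0.36, adjusted p = 0.113). It passed under 2 of the 18 alternatives, with adjusted p between 0.00586 and 0.58.

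Plk2, a polo-like kinase of the early response to growth factors and stress (chr13:111185269-111191051), followed the split of Cdkn1a. It read 9.12, 7.33 and 7.51 in LPS/GalN against 8.22, 8.52 and 9.54 in LPS, so that replicate 1 lay among the LPS arrays and replicates 2 and 3 below them. The difference was -0.77 ± 0.53 (95% interval -1.99 to 0.45, adjusted p = 0.51). With LPS/GalN replicates 2 and 3 left out it was 0.36. A second Plk2 row lay near background and was above it on 1 LPS/GalN array and on 0 LPS arrays, so it gives no difference.

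Ccng1, which encodes cyclin G1, a classical p53 target that recruits a phosphatase to Mdm2 (chr11:40562053-40567494), showed no separation. It read 6.33, 6.27 and 7.13 in LPS/GalN, against 6.13, 6.76 and 6.11 in LPS. The difference was 0.24 ± 0.32 (95% interval -0.50 to 0.98, adjusted p = 0.75) and rested on LPS/GalN replicate 3, being -0.031 without it.

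Mdm2, the ubiquitin ligase that closes the feedback loop on p53, read lower in LPS/GalN in both of its rows. The brighter row (chr10:117125960-117147084) held 8.33, 7.63 and 7.98 in LPS/GalN, against 9.16, 8.92 and 9.22 in LPS. The other row held 7.48, 7.08 and 8.16 against 9.08, 8.95 and 9.22. In both rows every LPS/GalN array lay below every LPS array. The brighter row differed by -1.12 ± 0.25 (95% interval -1.70 to -0.54, 2.17-fold), with an adjusted p of 0.056 that missed the threshold. The other row fell by 1.51 ± 0.30, with an adjusted p of 0.0339 in the fit of single rows. Mdm2 passed under 8 of the 18 alternatives, including the mean of its rows, with adjusted p between 0.0127 and 0.436. The difference of the brighter row lay between -1.29 and -0.94 with any 1 array left out. A row whose description holds the full name of Mdm2 lies on chromosome 15, away from the Mdm2 locus, and was not counted.

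**Figure D2:**
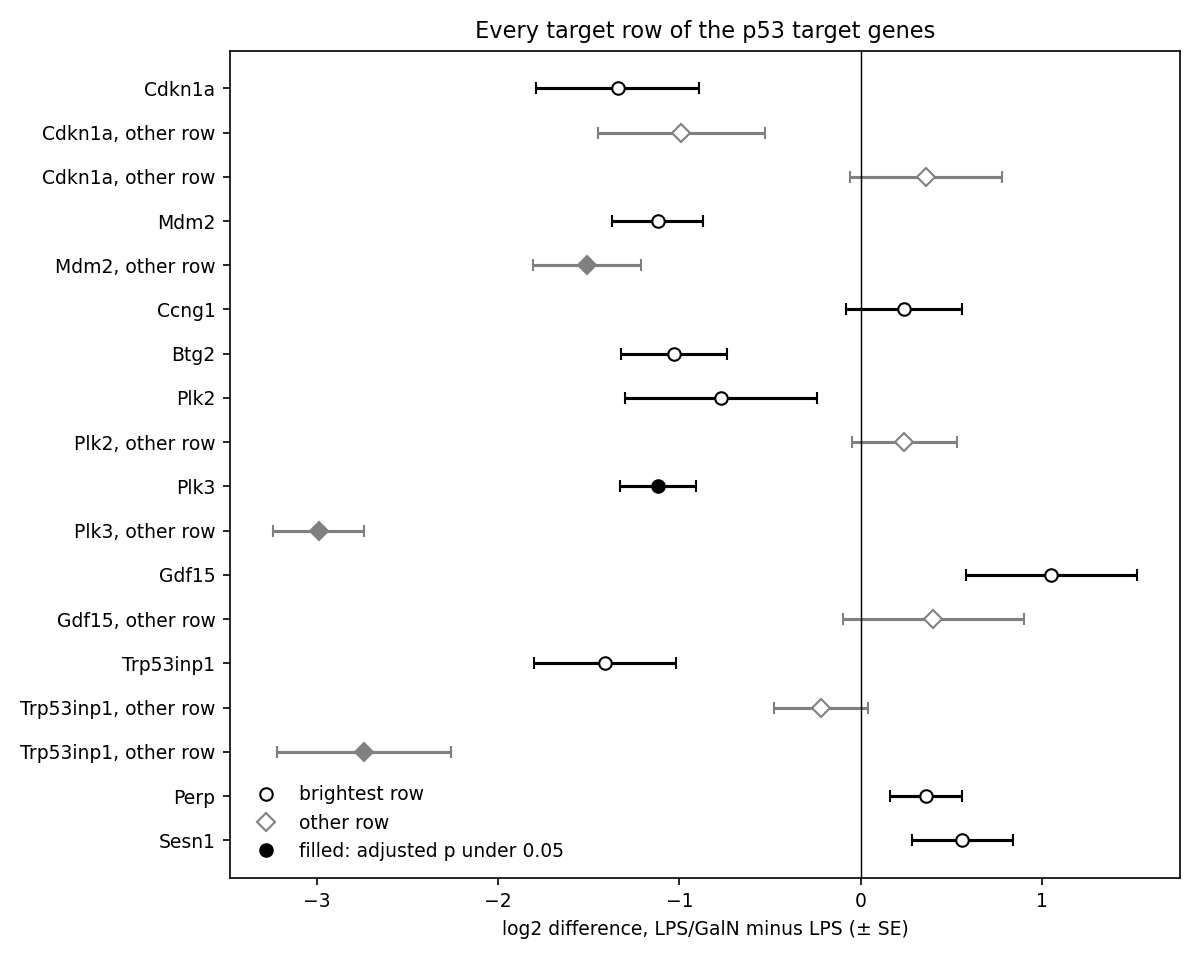
Log2 difference, LPS/GalN minus LPS, of all 18 target rows of the p53 target genes, with SE bars from limma. Circles are the brightest row of each gene, diamonds its other rows, and filled symbols have an adjusted p under 0.05 in the fit of single rows. The filled symbols are 1 row of Mdm2, both rows of Plk3 and the SIP18 row of Trp53inp1, all to the left of 0.

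Of the genes tied to cell death, one read lower and one slightly higher. Trp53inp1, a nuclear and autophagy protein that promotes p53-dependent death (chr4:11091457-11097803), read 8.53, 8.16 and 9.49 in LPS/GalN, against 10.54, 9.63 and 10.24 in LPS. The groups did not overlap, although LPS/GalN replicate 3 and LPS replicate 2 were close. The difference was -1.41 ± 0.39 (95% interval -2.31 to -0.51, adjusted p = 0.109). Trp53inp1 passed under 2 of the 18 alternatives, including the mean of its rows, with adjusted p between 0.0218 and 0.499. The row described as SIP18, an alternatively spliced form at the same locus (chr4:11083587-11101524), stood further apart, with 6.18, 7.54 and 8.26 in LPS/GalN against 10.06, 9.87 and 10.28 in LPS. It fell by 2.74 ± 0.48 (6.69-fold, adjusted p = 0.0186 in the fit of single rows). The last row was above background on 1 array of each group and gives no difference.

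Perp, a p53 target of the cell membrane that is also part of desmosomes in epithelia (chr10:18564951-18576884), had the narrowest spread of the 10 genes. It read 11.11, 11.22 and 11.14 in LPS/GalN, against 10.83, 10.79 and 10.78 in LPS, and every LPS/GalN array was higher. The difference was 0.36 ± 0.20 (95% interval -0.10 to 0.82, adjusted p = 0.408) with an SE that limma draws towards the spread of other features. Its difference lay between 0.32 and 0.42 under all 18 alternatives, none of which made it pass.

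The secreted and metabolic targets leaned the other way and did not pass. Gdf15, a secreted factor of cell stress that reduces appetite (chr8:73153291-73156355), read 8.99, 7.06 and 8.56 in LPS/GalN, against 7.21, 6.93 and 7.32 in LPS. LPS/GalN replicates 1 and 3 were above all LPS arrays and replicate 2 was among them. The difference was 1.05 ± 0.47 (95% interval -0.03 to 2.13, 2.07-fold, adjusted p = 0.295). Without LPS/GalN replicate 2 it was 1.62 with an adjusted p of 0.0336, in a range of adjusted p from 0.0336 to 0.781 over the 18 alternatives. A second Gdf15 row read 7.91, 6.25 and 7.43 against 6.03, 6.88 and 7.49, a difference of 0.40 ± 0.50, and the groups overlapped in part.

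Sesn1, which encodes sestrin 1, an inhibitor of mTORC1 signalling that responds to p53 (chr10:41607254-41628230), read 7.80, 8.62 and 8.59 in LPS/GalN against 7.67, 7.97 and 7.69 in LPS. Replicates 2 and 3 of LPS/GalN were above all LPS arrays and replicate 1 was among them. The difference was 0.56 ± 0.28 (95% interval -0.09 to 1.21, adjusted p = 0.363). With LPS/GalN replicates 2 and 3 left out it was 0.02.

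In these 10 genes the LPS/GalN arrays varied more among themselves than the LPS arrays. The range over the 3 arrays was wider in LPS/GalN for all 10 genes, against 54.5% of all features. Its median was 0.92 in LPS/GalN and 0.34 in LPS for the 10 genes, against 0.63 and 0.58 for all features. The way they varied differed between genes. LPS/GalN replicate 1 exceeded the mean of replicates 2 and 3 by 1.57 for Cdkn1a, 1.70 for Plk2, 1.18 for Gdf15 and 0.53 for Mdm2. For Btg2 and Sesn1 the same subtraction gave -0.86 and -0.81, and for Plk3 and Perp 0.05 and -0.07. The thymus markers separated the same arrays, replicate 1 from replicates 2 and 3, and their part was not tested.

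**Figure D3:**
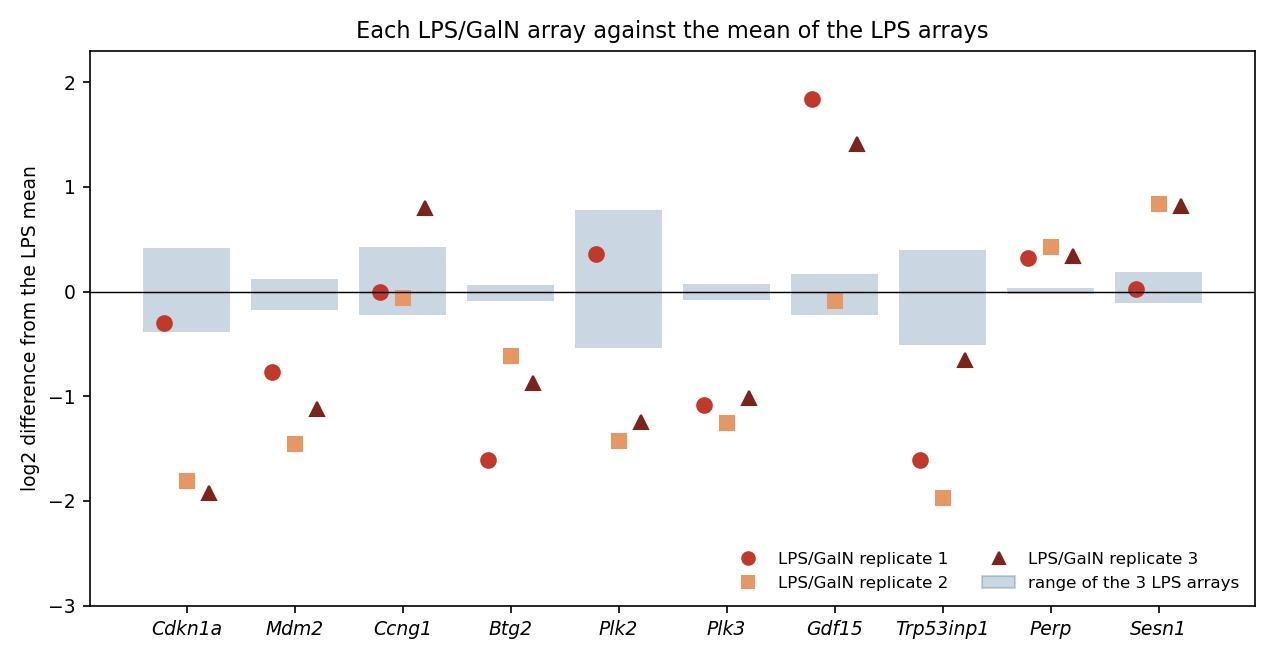
Each LPS/GalN array minus the mean of the 3 LPS arrays, on the log2 scale, for the brightest row of each p53 target gene. Shaded boxes are the range of the 3 LPS arrays around their mean. All 3 LPS/GalN arrays lie outside the box for Mdm2, Btg2, Plk3, Trp53inp1 and Perp, and replicate 1 lies inside it for Cdkn1a, Plk2, Ccng1 and Sesn1.

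Of the 3 named features with the highest Pearson's r to Cdkn1a over the 6 arrays, those given here were sphingosine kinase 2 (0.9915) and inhibitor of DNA binding 2 (0.9886). Sphingosine kinase 2, an enzyme that makes sphingosine 1-phosphate, read 9.18, 8.45 and 8.55 in LPS/GalN against 9.36, 9.12 and 9.49 in LPS. Inhibitor of DNA binding 2, a partner that silences helix-loop-helix transcription factors, read 11.50, 10.23 and 10.06 against 11.65, 11.72 and 12.33. They come from the top of 36210 features over 6 points, and the order of the arrays was not the same in each: LPS/GalN replicate 1 lay below all LPS arrays for inhibitor of DNA binding 2 but not for Cdkn1a.

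The wider p53 pathway was read from the same fit. Of 16 regulators of p53, 0 passed, with a median difference of -0.33 and values from -0.82 to 1.25. Trp53, the gene of p53 itself, read 10.80, 11.06 and 10.45 in LPS/GalN against 10.93, 10.96 and 11.04 in LPS, a difference of -0.21 ± 0.24 (adjusted p = 0.709). Mdm4, the partner of Mdm2, differed by -0.62 ± 0.27 (adjusted p = 0.286) and read lower on every LPS/GalN array. Ppm1d, a phosphatase that p53 induces and that switches the pathway off, differed by -0.55 ± 0.50 (adjusted p = 0.631). The arrays measure RNA, and p53 protein was not measured.

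Of 9 measured targets of cell cycle arrest and DNA repair, 1 fell and 0 rose, with a median of 0.39. The one that fell was Gadd45a, a stress-response gene that slows the cell cycle, with 9.14, 9.18 and 9.64 in LPS/GalN against 11.24, 11.38 and 11.31 in LPS. Its difference was -1.99 ± 0.23 (3.97-fold, adjusted p = 0.00327) and stayed past the threshold with any 1 array left out (adjusted p up to 0.0218). Its 2 other rows did not pass, and the 3 rows ranged from -1.99 to 1.03.

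Among 11 measured cell death targets, 2 fell and 1 rose, with a median of 0.16. The death receptor Fas (-2.04 ± 0.22, adjusted p = 0.00245) and the apoptosome scaffold Apaf1 (-2.08 ± 0.23, adjusted p = 0.00274) fell, and both passed with any 1 array left out (adjusted p up to 0.0172 and 0.0196). The rows of these genes did not all pass, with 1 of 2 rows past the threshold for Fas (the other at -0.77) and 2 of 4 for Apaf1, whose row differences ranged from -2.08 to 0.0. Siva1, a proapoptotic partner of tumour necrosis factor receptors, rose to 7.97, 8.69 and 7.97 in LPS/GalN, against 6.39, 6.87 and 7.12 in LPS (1.42 ± 0.30, adjusted p = 0.0449), with 1 of its 2 rows past the threshold. It missed the threshold with each of the 6 arrays left out in turn (adjusted p between 0.0538 and 0.158). Bax, which opens the outer mitochondrial membrane, read 11.67, 11.18 and 10.92 against 10.79, 10.57 and 10.91, a difference of 0.50 ± 0.26 (adjusted p = 0.383).

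Of 9 metabolic and secreted targets, 1 fell and 0 rose, with a median of 0.14. Thbs1, the matrix protein thrombospondin 1, fell by 1.47 ± 0.28 (adjusted p = 0.0288), with 3 of 3 rows past the threshold. It passed without LPS/GalN replicate 1 and missed without any of the other 5 arrays (adjusted p up to 0.0933). Sesn2, a sestrin of nutrient and oxidative stress, differed by -0.12 ± 0.46 (adjusted p = 0.928).

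In these 4 lists together, 4 of 45 measured genes fell and 1 rose, with a median of 0.13, where 3.02% of all features fell and 0.597% rose. With the mean of rows in place of the brightest row, 3 of the 45 passed. With LPS replicates 1 and 2 left out, the differences of the 4 that fell lay between -2.26 and -1.76, and with LPS/GalN replicates 2 and 3 left out between -2.16 and -1.09, with 0 passing in either case, where 1 array stood for a group. Zmat3 and Bbc3 were not found by name.

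**Figure D4:**
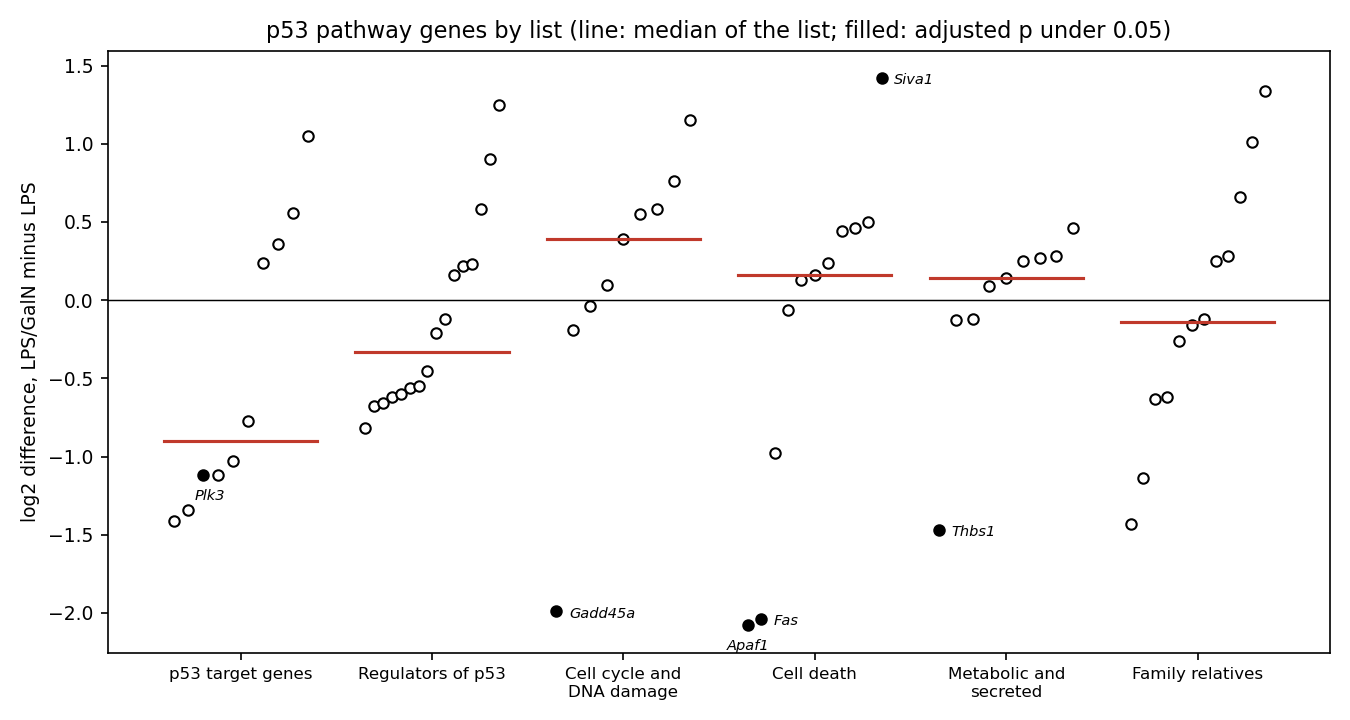
Log2 difference, LPS/GalN minus LPS, of the p53 target genes, of the other p53 pathway genes by list and of the family relatives, each sorted from low to high. Filled circles have an adjusted p under 0.05, and the red lines are medians, from -0.90 for the p53 target genes to 0.39 for the cell cycle and DNA damage list. Regulators and relatives hold no filled circle.

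Family relatives that are not classed with the 10 genes gave 0 calls among 12 measured, with a median of -0.14 and values from -1.43 to 1.34. Sesn2 and Mdm4 belong both here and to the pathway lists. The relative nearest to the threshold, named after its values were seen, was Btg1, an antiproliferative gene like Btg2, with 10.42, 10.97 and 10.49 in LPS/GalN against 12.06, 11.60 and 11.63 in LPS. Its difference of -1.14 ± 0.25 (adjusted p = 0.0544) was of the size of that of Btg2. Plk1 was not found by name.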

How the data were processed

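Per the file headers, the authors deposited RMA intensity on the linear scale, 1 table per array, with a gene description and mm9 gene coordinates for each of 44170 target rows, 44155 of them made from 3 probes. RMA, named in the submitters' processing notes, makes 1 value of the probes of a target and equalises the arrays, so a shift of all RNA is removed. The version of RMA, its settings and the probe positions were not given in the sources used here. A row of 5000 random probes gave the background of each array. Groups and replicate numbers came from the titles.

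Intensities were turned to log2. Rows were joined by symbol (3679 rows) or by gene name and chromosome (27652 rows), and the brightest row was kept. The 12839 rows with neither each stayed a feature by itself, so the shares of all features include them. Of the 36210 features, 5638 had several rows. Groups were compared in limma 3.58.1 (lmFit and eBayes, 3.99 prior degrees of freedom) in R 4.3.3, two-sided, with Benjamini-Hochberg adjustment over all features and a threshold of 0.05. The steps were tested on simulated data. The rule for named genes took the 10 members, the other pathway genes and relatives past the threshold, 5 fixed genes (Trp53, Mdm4, Ppm1d, Bax and Sesn2) and the 3 features likest to Cdkn1a. One list gene and 1 of these 3 features are not reported here, and the list gene is left out of the counts of list genes. The members and lists were chosen with earlier results of these data known.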

Additional observations from a re-analysis of the deposited data

How the results depend on the processing

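With 18 alternatives, the direction of all 10 p53 target genes held except for Ccng1 and Plk2. Ccng1 ranged from -0.031, with LPS/GalN replicate 3 left out, to 0.46 over the single omissions. With LPS/GalN replicates 2 and 3 both left out, Ccng1 was -0.0013 and Plk2 0.36, and the cause was not tested. The number of p53 target genes past the threshold was 1 over all arrays and 1 under renewed quantile normalization, and the brightest rows gave 1 when p-values were adjusted over every target row. It was 4 with trend and robust fitting (6.92% of all features), 3 with the mean of rows (3.75%), 3 on the series' deposited value table (13.5%), and 2 with the background filter (6.42%), the median filter (10.4%), median centring (3.79%) or an offset of 32 (5.29%). With 1 array left out it was 0 to 3 (1.9% to 4.62% of all features), with 3, all lower, without LPS/GalN replicate 1 (4.62%) and 1, the rise of Gdf15, without LPS/GalN replicate 2 (2.27%). It was 0 without LPS replicates 1 and 2, where 0 of all features passed, and 0 without LPS/GalN replicates 2 and 3 (0.729%). The count of the other pathway genes was 5. It was 3 with the mean of rows or the replicate block, 3 to 4 with 1 array left out and 0 with either pair of arrays left out. That of relatives was 0, but 2 with trend and robust fitting, 1 with the mean of rows, the filters, median centring, the offset or the value table, and 0 to 1 with 1 array left out. With the replicate number as a block, 0 p53 target genes passed (2.55% of all features), and Plk3 had an adjusted p of 0.0822. The titles do not say whether the numbers pair the mice. Deviations of arrays with the same number correlated at 0.003, -0.002 and 0.025, and those with different numbers at -0.068 to 0.062. So few arrays cannot settle whether a pairing exists. With 3 arrays a group, signal near background limits the dim second row of Plk2 and the last row of Trp53inp1.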
